A study of Mus musculus with 6 samples.

Results

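The miRNAs described here are mmu-miR-206-3p, mmu-miR-133a-3p and mmu-miR-133b-3p (below without the species prefix mmu), 3 microRNAs known from skeletal muscle, as measured in mProx24, a mouse line of proximal tubular cells of the kidney. They were chosen by their names on the array, 3 of the 1247 mouse miRNAs it carried, because miR-206-3p had been seen in this line while other muscle miRNAs might not have been. Their detection is therefore a description and was not tested. The study used Agilent miRNA arrays with 1 dye and 100 ng of total RNA an array, and compared a control with single and combined metabolic stimuli. Each of the 6 conditions had 1 array, so a difference between 2 arrays has no replicate check, and the errors given are those among the spots of a probe on an array.

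All cultures were of the same line, labelled C57B6 by strain, in Dulbecco's modified Eagle's medium with fetal calf serum. The Control, High glucose and High FFAs cultures were kept at 20% oxygen. The Hypoxia, Triple stimuli and Triple stimuli + Rapamycin cultures were kept at 1% oxygen for 12 h. The label HG, for high glucose, stood on High glucose, Triple stimuli and Triple stimuli + Rapamycin, with no concentration. Palmitate, a saturated fatty acid, was given at 150 µM for 9 h on 0.15% bovine serum albumin in High FFAs, Triple stimuli and Triple stimuli + Rapamycin, so that palmitate and its albumin carrier cannot be told apart. Rapamycin, an inhibitor of the kinase complex mTORC1, was given at 0.4 µg/ml for 12 h before palmitate in the last of these. All 6 arrays lay on 1 slide and were scanned once, and the row of the slide was the same split as the oxygen level, so that row and oxygen cannot be told apart.

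A miRNA is a short RNA that guides the silencing machinery to messenger RNAs, chiefly through the bases near its 5′ end called the seed. miR-206 belongs to the miR-1 family, which shares its seed, and is known from skeletal muscle, where it promotes myoblast differentiation. The miR-133 miRNAs are transcribed together with members of the miR-1 family from paired loci and are known from skeletal and cardiac muscle. None of them is a known marker of the proximal tubule.

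The sequences below show which bases of the detected miRNA its array probes pair with, and how it differs from its neighbour in the genome. They are those of RefSeq for GRCm38.p6, in which 1017 of the 1247 array names and 2 of the 3 members were matched. miR-133a-3p was the member without a match. Sequences run 5′ to 3′, and capitals mark bases 2 to 8, the seed, of each mature miRNA.
miR-206-3p: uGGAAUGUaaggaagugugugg
miR-206-5p: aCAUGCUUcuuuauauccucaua
miR-133b-3p: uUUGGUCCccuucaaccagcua
miR-133b-5p: gCUGGUCAaacggaaccaaguc

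In the same build, miR-206-3p lay at chr1:20679055-20679076 and miR-133b-3p at chr1:20682834-20682855, both on the plus strand. The hairpin of Mir206 ran over 73 bases at chr1:20679010-20679082, with miR-206-3p, in capitals, at bases 46 to 67.
Mir206: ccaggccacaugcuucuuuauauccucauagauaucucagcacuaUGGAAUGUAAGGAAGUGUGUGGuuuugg
The Mir133b hairpin began 3686 bases further on, at chr1:20682769-20682887. The hairpins of Mir206 and Mir133b both lay within the span of Lincmd1, a long noncoding RNA gene of muscle annotated at chr1:20669882-20682958. A miR-133a hairpin, Mir133a-2, stood on another chromosome, at chr2:180398379-180398482.

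The array carried 2 probes for miR-206-3p, printed 20 times each. Both are DNA and pair with the 3′ part of the miRNA, and capitals mark the probe bases that lie opposite the seed.
A_54_P1177: ccacacacttccttA
A_54_P1178: ccacacacttccttAC
The shorter probe covered bases 8 to 22 of the miRNA in 15 nucleotides, and the longer covered bases 7 to 22 in 16. They met the seed at 1 and 2 of its bases, so nearly all of the paired stretch lay outside it. Among 1016 other miRNAs of the array with a RefSeq sequence, 0 held an exact match to either probe. In these, the fewest mismatches were 4, in miR-217-5p and miR-3097-5p for the shorter probe and in miR-3097-5p for the longer. Neither of these miRNAs was detected on any array. miR-1a-3p, of the same family as miR-206, had no matched sequence, so its mismatches to the probes were not counted. It was detected on 0 of 6 arrays. Among the matched sequences, miR-6349 and miR-6382 had the seed of miR-206-3p, and each was detected on 0 of 6 arrays. For want of a sequence, miR-1a-3p was left out of this search too.

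miR-206-3p was detected in every culture, while miR-133a-3p and miR-133b-3p were detected in none. In bulk RNA of this kind, fewer cells with a miRNA and less of it in each cell cannot be told apart. Detection of a probe required that, among spots without an outlier flag, a share of 0.5 or more be well above background by the scanner software. A miRNA needed 1 such probe. All 240 miR-206-3p spots of the 6 arrays were well above background, and 223 of them carried no outlier flag and were used. The software's own call per miRNA was also positive on 6 of 6 arrays. Between 162 and 193 miRNAs were detected on an array, 198 on at least 1 and 154 on all 6.

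The processed signal of the longer miR-206-3p probe, linear and before any scaling, was 94.3 ± 8.39 (SD over 16 spots) on Control and 94.3 ± 12.6 (20 spots) on High glucose. It was 95.1 ± 8.71 (18 spots) on High FFAs and 101 ± 13.6 (20 spots) on Hypoxia. It was 110 ± 9.1 (19 spots) on Triple stimuli and 111 ± 9.26 (18 spots) on Triple stimuli + Rapamycin. The 3 arrays at 20% oxygen thus lay close together, and the 3 at 1% oxygen lay above them, with spots that overlapped widely between arrays. The highest array was 1.18-fold above the lowest. The lowest signal of any detected probe was 19.5 to 22.2, and the mean of the 1000 negative control spots was 3.96 to 4.58.

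The shorter probe read 68 ± 8.14 on Control, 70 ± 6.49 on High glucose and 68.1 ± 7.49 on High FFAs. It read 75.2 ± 7.2 on Hypoxia, 78.1 ± 6.08 on Triple stimuli and 73.8 ± 5.73 on Triple stimuli + Rapamycin. The same 3 arrays were again the higher ones, within a range of 1.15-fold. The summed signal per miRNA that the software gives, with its own error, was 45.9 ± 3.77 on Control, 46.4 ± 3.85 on High glucose, 46.1 ± 3.82 on High FFAs, 49.8 ± 4.02 on Hypoxia, 53.2 ± 4.25 on Triple stimuli and 52.2 ± 4.18 on Triple stimuli + Rapamycin. It spanned 1.16-fold, with the errors of neighbouring arrays overlapping.

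**Figure D1:**
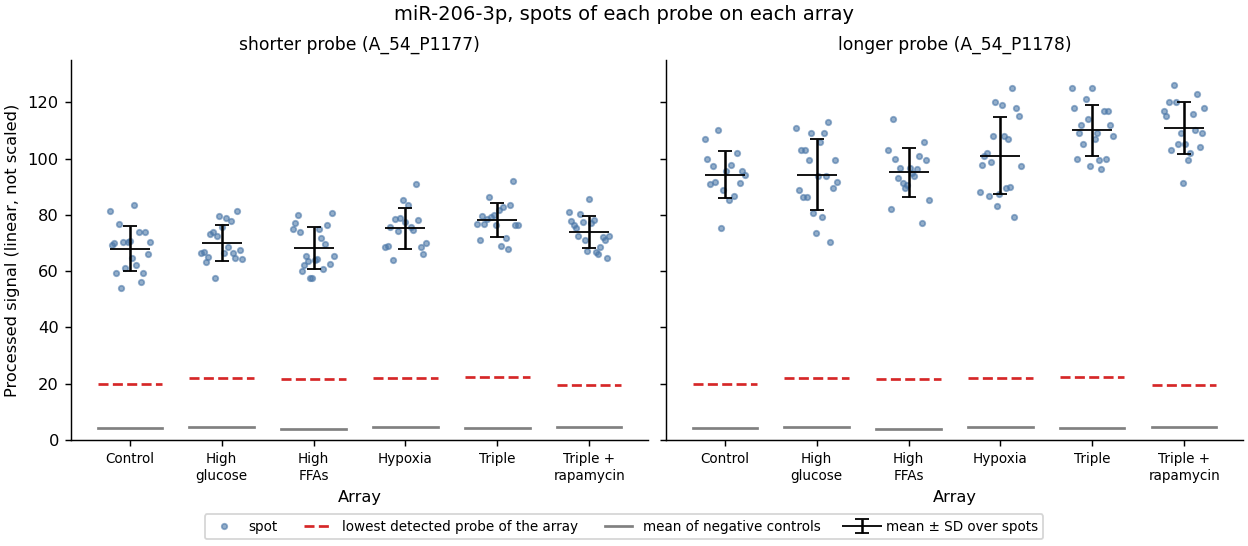
Processed signal (linear, not scaled) of each miR-206-3p spot without an outlier flag, by array, for the shorter and the longer probe, with the mean ± SD over spots. The dashed line is the lowest detected probe of the array (19.5 to 22.2) and the grey line the mean of the negative controls (3.96 to 4.58); every spot lies above both.

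Arrays differed in brightness as a whole: the 75th percentile of the 281 probes detected on all 6 arrays ran from 295 on Control to 382 on Triple stimuli + Rapamycin, a 1.29-fold range that was wider than that of miR-206-3p. Each array was therefore divided by this percentile before conditions were compared. Scaled, the longer probe read 108 on Control, 89 on High glucose, 101 on High FFAs, 102 on Hypoxia, 108 on Triple stimuli and 98.5 on Triple stimuli + Rapamycin. In log2 units these levels were 6.76, 6.48, 6.66, 6.68, 6.76 and 6.62. High glucose was now lowest, and the array at 1% oxygen with rapamycin lay below 2 of the 3 arrays at 20% oxygen.

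In the order of scaled levels, High glucose lay 0.15 (log2; spot SE 0.052) below Triple stimuli + Rapamycin, which was the only step between neighbours above 2 spot SE. The further steps, to High FFAs, Hypoxia, Triple stimuli and Control, were 0.042, 0.011, 0.080 and 0.004, and each was within 2 spot SE. The whole range of 0.28 was 1.22-fold. The shorter probe gave log2 scaled levels of 6.29, 6.05, 6.18, 6.25, 6.26 and 6.03 in the order of arrays above, with Triple stimuli + Rapamycin lowest and High glucose next. Over the 6 arrays the levels from the probes had a Pearson r of 0.853 and a Spearman rho of 0.943; the points share the RNA, the array and its scaling.

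Single stimuli were each set against the control array. A difference was called where the miRNA was detected on both arrays, moved at least 1.5-fold and by more than 2 spot SE. miR-206-3p was 0.28 (log2) lower on High glucose than on Control (spot SE 0.054; 0.821-fold), which was past 2 spot SE but short of the fold. In that comparison 6.79% of the 162 miRNAs detected on both arrays were called, and 19.8% differed by at least as much as miR-206-3p. The median over those miRNAs was -0.053, and miR-206-3p lay 0.23 below it. Before scaling, miR-206-3p was equal on these arrays (difference 0), while the median miRNA was 0.23 higher on High glucose. The miR-206-3p values left out 4 low spots of the longer probe on Control, at 59.4 to 70.2, that carried an outlier flag. On High glucose 0 spots of this probe were left out. With all spots kept, the scaled difference was -0.162.

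On High FFAs, miR-206-3p differed from Control by -0.096 (spot SE 0.045), beside a called share of 2.58% of 155 miRNAs. On Hypoxia it differed by -0.084 (spot SE 0.054), beside 1.85% of 162 miRNAs. The difference on High FFAs was past 2 spot SE and that on Hypoxia was within it. These differences were not called and were near the medians of all miRNAs, which were -0.035 and -0.11. Some 47.1% and 69.1% of the miRNAs differed by at least as much.

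With the stimuli combined, miR-206-3p on Triple stimuli differed from Control by -0.004 (spot SE 0.042), beside a called share of 5.62% of 160 miRNAs. Triple stimuli + Rapamycin differed from Control by -0.14 (spot SE 0.043), beside 9.15% of 164 miRNAs. Against Triple stimuli, the culture with rapamycin was lower by 0.13 (spot SE 0.039), beside 3.87% of the miRNAs. Triple stimuli differed from Hypoxia by 0.080 (spot SE 0.051), beside 8.82% of 170 miRNAs. miR-206-3p was called in none of the 7 comparisons. Those with rapamycin were past 2 spot SE, at 61.6% and 44.8% of miRNAs with a difference at least as large. High glucose and High FFAs against Control were past 2 spot SE as well, as given above.

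**Figure D2:**
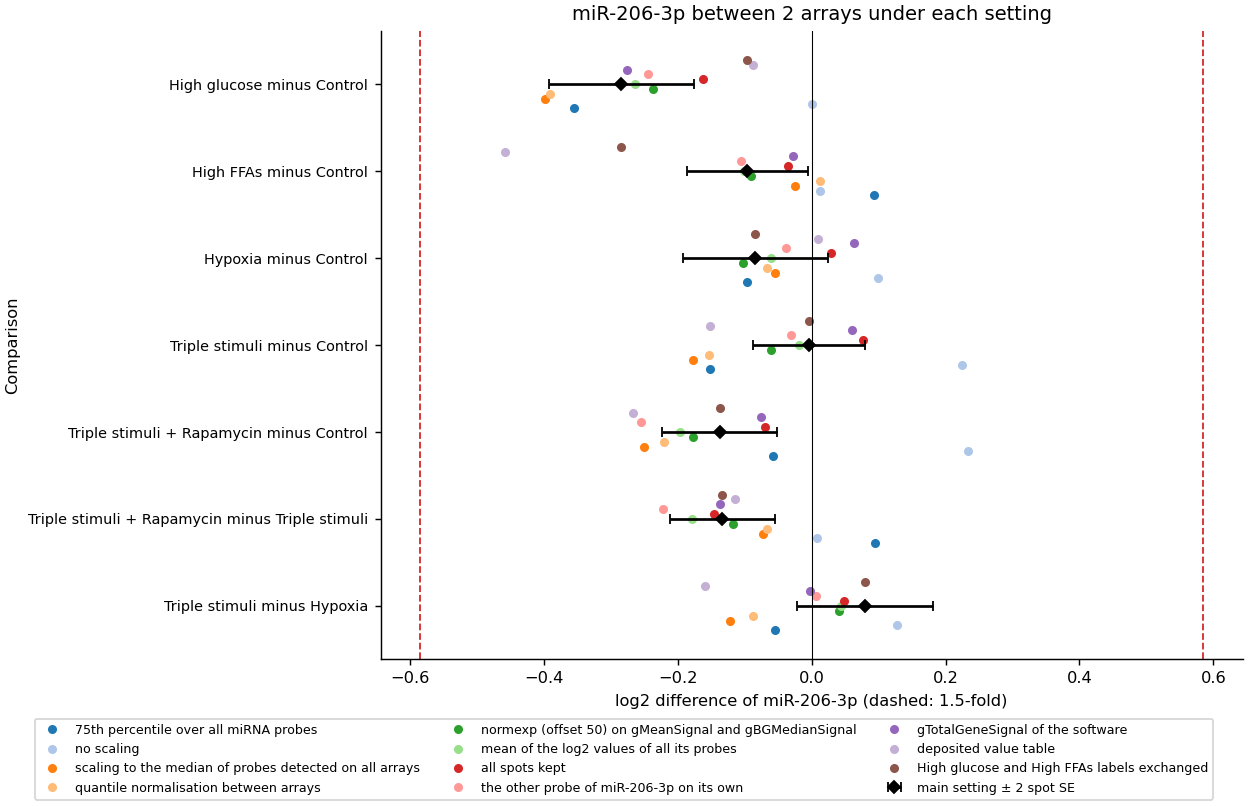
log2 difference of miR-206-3p between 2 arrays, for the 7 comparisons (vertical axis), at the scaling used (black, ± 2 spot SE) and under each alternative processing (colours). No point reaches the dashed lines at 1.5-fold; the largest is -0.46, for High FFAs minus Control in the deposited table.

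Across the 6 arrays, 3 against 3 could be compared by oxygen, by glucose label and by palmitate label, with the other treatments lying unevenly on the sides. The tests were limma fits over the 154 miRNAs detected on all arrays, with Benjamini-Hochberg adjustment over all of them. The log2 level of miR-206-3p was 6.68 ± 0.067 (SD, n = 3) at 1% oxygen and 6.63 ± 0.15 (n = 3) at 20%. The difference was 0.051 (SE 0.092, 95% interval -0.17 to 0.28, or 0.887-fold to 1.21-fold; limma adjusted p = 0.93), and the groups overlapped. By oxygen, 0% of the miRNAs passed an adjusted p of 0.05, 7 had an unadjusted p under it, and 11% had groups that did not overlap. Under 5 of the 18 alternatives, 4 of processing and that without the High glucose array (-0.027), the sign turned, and it was not called under any. Exchanging the labels of High glucose and High FFAs could not alter this split, as both lay at 20% oxygen.

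Before scaling, all 3 arrays at 1% oxygen were above all 3 at 20% in miR-206-3p, with a difference of 0.18 (SE 0.080; limma adjusted p = 0.749). The same held for 9.09% of the 154 miRNAs, and the median over all of them was 0.11 higher at 1% oxygen. At this setting 0% of the miRNAs passed the adjusted threshold and 4 had an unadjusted p under it. The row of the slide is the same split as oxygen and cannot be told apart from it. Brightness overlapped between the sides, with a 75th percentile of 295 to 360 at 20% oxygen and 335 to 382 at 1%.

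By glucose label, miR-206-3p was 6.62 ± 0.14 (n = 3) with and 6.70 ± 0.052 (n = 3) without. The difference was -0.082 (SE 0.087, 95% interval -0.29 to 0.12, or 0.82-fold to 1.09-fold; limma adjusted p = 0.735), with overlapping groups. In this split 9.74% of the 154 miRNAs passed the threshold, and 29.2% had groups that did not overlap. miR-206-3p passed it under 1 of 18 alternatives, scaling to the median of the commonly detected probes, at a difference of -0.25 (limma adjusted p = 0.0489). The adjusted p ran from 0.0489 to 0.986 over all of them. Without any scaling the sign turned, to 0.12. Brightness moved with this label: the 75th percentile was 346 to 382 on the 3 arrays with the high glucose label and 295 to 335 on the others, and 183 to 193 miRNAs were detected against 162 to 172. Its part in the difference was not tested.

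By palmitate label, miR-206-3p was 6.68 ± 0.068 (n = 3) with and 6.64 ± 0.15 (n = 3) without. The difference was 0.044 (SE 0.094, 95% interval -0.18 to 0.27, or 0.881-fold to 1.21-fold; limma adjusted p = 0.977), and the groups overlapped. By palmitate 0% of the miRNAs passed the threshold, 5 had an unadjusted p under it, and 7.79% had groups that did not overlap. Without the High glucose array the difference was -0.037.

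**Figure D3:**
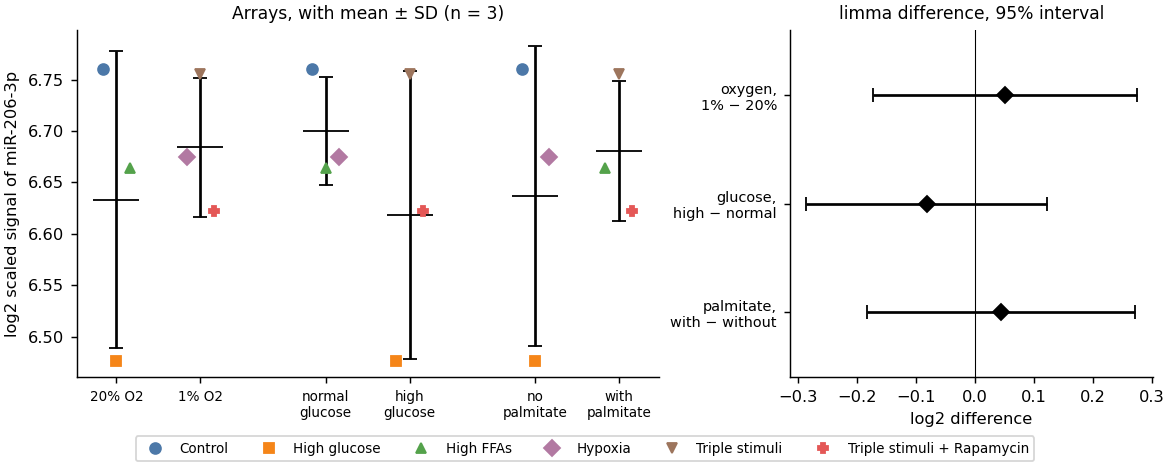
Left, log2 scaled signal of miR-206-3p on each array, grouped by oxygen, glucose label and palmitate label, with the mean ± SD (n = 3); right, the limma difference of each split with its 95% interval. High glucose, at 6.48, is the lowest array in each grouping, the groups overlap in all 3, and every interval includes 0.

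The labels of High glucose and High FFAs differed between the scanner files and the deposited table. The deposited table of processed values gave miR-206-3p as 2.18 for Control, 2.05 for High glucose, 1.59 for High FFAs, 2.19 for Hypoxia, 1.96 for Triple stimuli and 1.81 for Triple stimuli + Rapamycin, on a linear scale. Its High glucose column equalled the software's summed signals of the scanner file of High FFAs after division by 1 factor, within 0.1%, for 70.9% of the miRNAs compared, and its High FFAs column those of the scanner file of High glucose for 70.6%. The value of miR-206-3p followed the same exchange, so the low array was High glucose in the scanner files and High FFAs in the table. With these labels exchanged, miR-206-3p was 0.28 lower on High FFAs than on Control. Which assignment holds was not settled by the files.

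Among miRNAs detected on all arrays, miR-206-3p was neither one of the most nor one of the least variable. Its SD over the 6 arrays was 0.11 on the log2 scale, against a median of 0.12 over the 154 miRNAs, and 40.3% of them had a smaller SD. Its range of 0.28 stood beside a median range of 0.32.

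The profile most like that of miR-206-3p over the 6 arrays, by Pearson r of log2 scaled levels, was that of miR-706 (r = 0.929). That miRNA was faint, at 4.54 to 4.82, where the lowest detected probe of an array lay at 4.11 to 4.54. miR-6360 (0.92), miR-494-3p (0.883), miR-6243 (0.876) and miR-23a-3p (0.849), a miRNA of a cluster with miR-27a and miR-24, came next. In each of these 5, High glucose was the lowest array, as in miR-206-3p, and their ranges were 0.14 to 0.33. The lowest r were those of miR-3102-5p (-0.738), miR-6378 (-0.73) and miR-29c-3p (-0.71), in which High glucose was the highest array. All were picked by r to a profile that was lowest on High glucose, so the place of that array in them is no separate result. Its place in the other miRNAs was not counted. Without scaling the r of miR-3102-5p, miR-6378 and miR-29c-3p were 0.374, 0.261 and 0.401. The median r over all miRNAs was 0.197; all points share the array and its scaling, and no p is given.

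miR-133a-3p and miR-133b-3p were each detected on 0 of 6 arrays, and 0 of their 240 spots was well above background. The software's summed signal for miR-133a-3p, which acts with miR-1 in cardiac and skeletal muscle, was 0.548 ± 1.83 on Control, 1.72 ± 1.91 on High glucose, 0.635 ± 1.89 on High FFAs, 0.893 ± 1.83 on Hypoxia, 1.36 ± 1.84 on Triple stimuli and 0.685 ± 1.79 on Triple stimuli + Rapamycin. Each value was smaller than its own error. The means of its probes ran from -0.25 to 3.83.

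For miR-133b-3p, encoded beside miR-206, the summed signal was 0.606 ± 1.83 on Control, 1.42 ± 1.91 on High glucose, 1.09 ± 1.89 on High FFAs, 0.946 ± 1.83 on Hypoxia, 1.73 ± 1.85 on Triple stimuli and 1.44 ± 1.79 on Triple stimuli + Rapamycin. These too were smaller than their errors, and the means of its probes ran from 0.868 to 3.16. In the deposited table both miR-133 miRNAs stood at the lowest value of the column for every sample, so they have no order among conditions there. The miR-133b-3p probes, which paired with more of their target, are shown with capitals opposite the seed.
A_54_P1549: tagctggttgaaggGGAC
A_54_P1550: tagctggttgaaggGGACC
They covered bases 5 to 22 and 4 to 22 of the miRNA, and 0 of 1016 other miRNAs with a RefSeq sequence held an exact match to either. miR-133a-3p had no matched sequence and was not among those compared, so whether these probes tell it from miR-133b-3p was not tested. On each array the levels of both miR-133 miRNAs were thus not well above background, which sets a bound and does not show absence.

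The other arm of each hairpin was not detected either. miR-206-5p, the 5′ arm of the Mir206 hairpin printed above, was detected on 0 of 6 arrays, with probe means of -1.24 to 4.55. miR-133a-5p ran from -4.98 to 0.0445 and miR-133b-5p from -2.97 to -0.636. miR-133c, a further miR-133 entry of the array, ran from -2.19 to 0.655.

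The wider set of muscle miRNAs was checked as a list. Of 7 main muscle miRNAs on the array, 1 was detected, miR-206-3p. miR-1a-3p, the chief miRNA of heart and skeletal muscle and of the same family as miR-206, had probe means of -3.31 to 1.11. miR-208a-3p and miR-208b-3p, which are encoded in myosin heavy chain genes, ran from -4.63 to -0.504 and from -3.75 to -0.803. miR-499-5p, of a further myosin gene, ran from -2.21 to 2.59. None of the 11 other arms and related muscle miRNAs with probes was detected (0 of 11). With miR-206-3p left out, the summed software signal of the 6 others ran from -3.76 on High FFAs to 1.02 on Hypoxia.

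**Figure D4:**
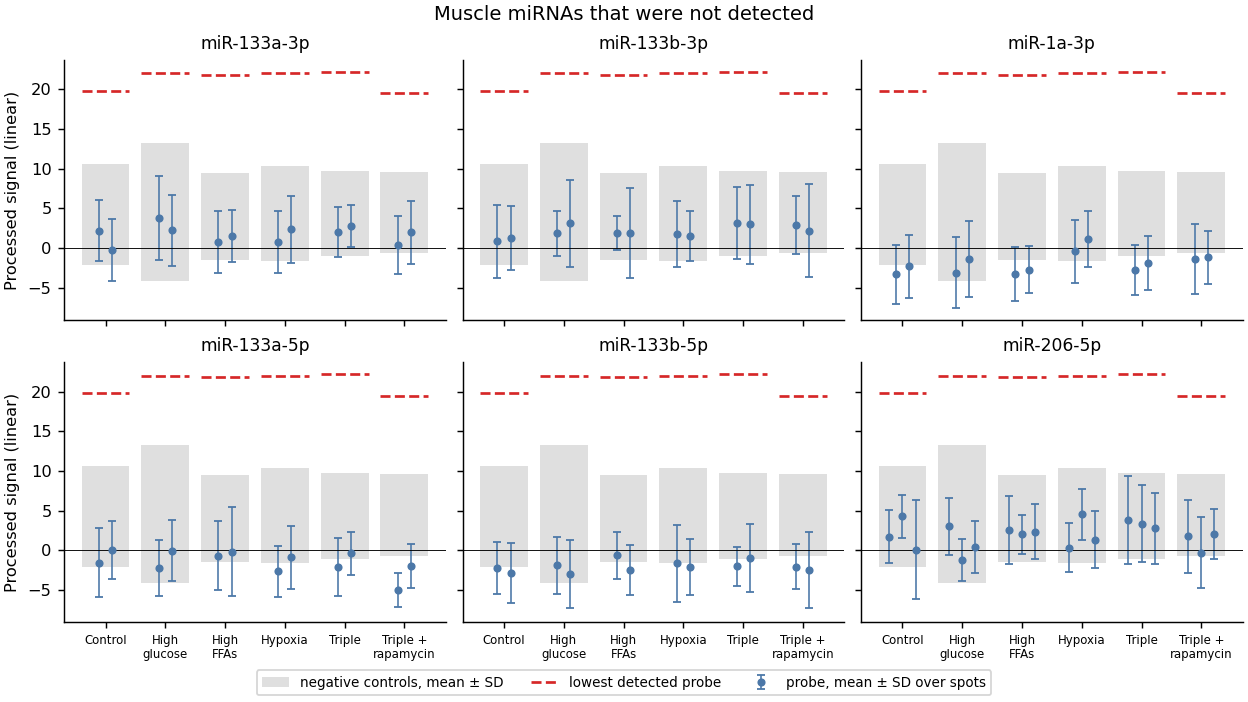
Processed signal (linear) of each probe of 6 muscle miRNAs, as the mean ± SD over spots without an outlier flag, on each array. Grey bands are the mean ± SD of 1000 negative control spots and dashed lines the lowest detected probe (19.5 to 22.2); all probe means lie below the dashed lines.

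Markers of other cell types were read in the same way. Of 11 miRNAs known from the proximal tubule and kidney epithelium, 7 were detected on all 6 arrays, those of the miR-10 and miR-30 families. The summed software signal of all 11 was 563 to 646. miR-204-5p, miR-215-5p, miR-194-5p and miR-192-5p, typical of kidney tubules, were detected on none. Detection was also 0 of 5 for the epithelial miR-200 family, 0 of 6 for blood, 0 of 2 for endothelium, 0 of 4 for fibroblasts and smooth muscle, 0 of 2 for neurons and 0 of 1 for hepatocytes.

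miRNAs that act in muscle development but are also expressed widely were mostly present. Among the 16 with probes, 10 were detected on all 6 arrays and 12 on 1 or more. Those present included miR-24-3p, miR-26a-5p, miR-27b-3p, miR-29b-3p, miR-31-5p, miR-125b-5p, miR-221-3p and miR-222-3p. miR-378a-3p was detected on 5 arrays and miR-181a-5p on 1, and miR-199a-3p, miR-214-3p, miR-489-3p and miR-503-5p on none. In each of the 7 comparisons between arrays, 0 members of the list were called higher and 0 lower, beside called shares of 1.85% to 9.15% over all miRNAs, so that a count of 0 among 10 or 11 members is near the background. Their median differences ran from -0.15 for Triple stimuli + Rapamycin minus Control, beside -0.11 over all miRNAs, to 0.035 for Triple stimuli minus Hypoxia, beside 0.10.

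Some members of the list had larger differences between arrays than miR-206-3p. miR-322-5p, of the miR-15/16 family and linked to cell cycle exit of myoblasts, was 6.23 on Control, 6.16 on High glucose and 6.14 on High FFAs, against 6.64 on Hypoxia, 6.51 on Triple stimuli and 6.36 on Triple stimuli + Rapamycin (log2 scaled). All 3 arrays at 1% oxygen were above the others, in a split in which 11% of the 154 miRNAs had groups that did not overlap. The difference by oxygen was 0.33 (SE 0.089), which did not pass the test (limma adjusted p = 0.499).

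miR-29b-3p, which represses collagen genes, lay between 7.84 and 7.92 on 5 arrays and at 7.40 on Triple stimuli + Rapamycin. The culture with rapamycin was 0.47 (spot SE 0.027) below Triple stimuli, under the fold needed for a call. miR-206-3p was lower by 0.13 in the same comparison.

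miR-181b-5p, of a family that rises in myoblast differentiation, was 5.35 on Control, 5.19 on High FFAs and 5.14 on Hypoxia, against 4.96 on High glucose, 4.91 on Triple stimuli and 4.80 on Triple stimuli + Rapamycin. The 3 arrays with the high glucose label were below the others, in a split in which 29.2% of the 154 miRNAs had groups that did not overlap. It was the 1 of 10 members tested that passed by glucose label, at -0.34 (SE 0.082; limma adjusted p = 0.0448), beside 9.74% of all miRNAs. miR-181b-5p was also the faintest of these 10, and the lowest detected probe of an array lay at 4.11 to 4.54 on this scale. Of 18 alternatives 4 kept the call. However, 1 of these 4 changed only the probe of miR-206-3p, so the levels of miR-181b-5p were the same and its call was bound to stay. Leaving out any 1 of the 6 arrays ended the call (limma adjusted p from 0.0831 to 0.153), with differences of -0.38 to -0.28. With the labels of High glucose and High FFAs exchanged, the difference was -0.19 (limma adjusted p = 0.909). Array brightness also moved with the high glucose label, as given above, and its part was not tested. By oxygen and by palmitate label 0 of the 10 passed. Whether miR-181b-5p and miR-206-3p differed in their response was not tested.

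**Figure D5:**
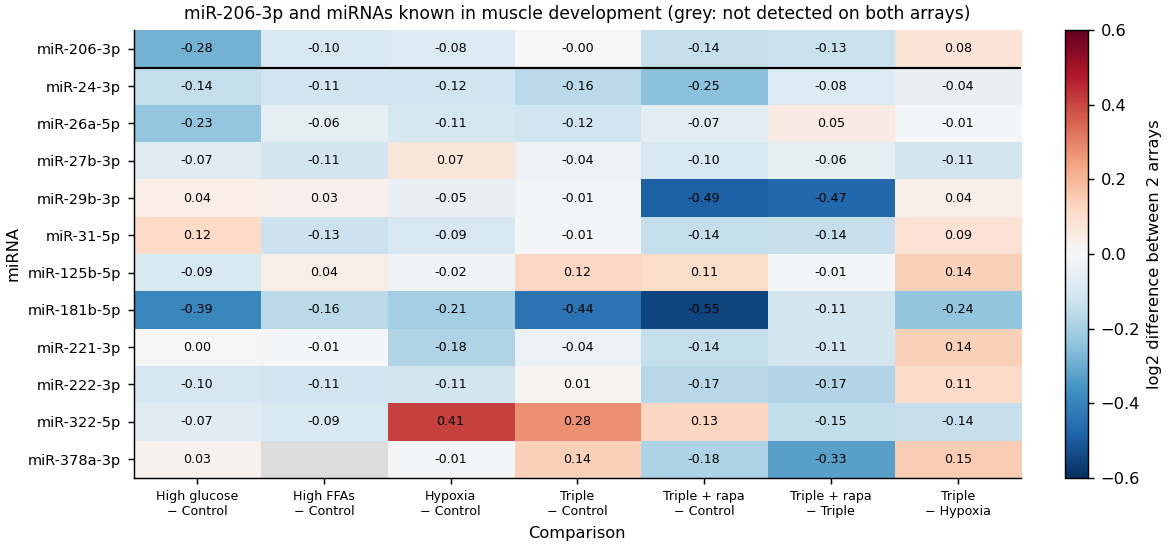
log2 difference between 2 arrays (colour and number) of miR-206-3p, in the top line, and of 11 miRNAs known in muscle development, for 7 comparisons; grey marks a miRNA that was not detected on both arrays. The strongest differences are those of miR-181b-5p (-0.55) and miR-29b-3p (-0.49) on Triple stimuli + Rapamycin minus Control, and none reached 1.5-fold.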

How the data were processed

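Per the file headers, Agilent Feature Extraction 10.7.3.1 (also in the submitters' processing notes) read the 6 arrays in 1 colour, Cy3. The deposited spot intensity is linear and background-subtracted, with no normalisation from array to array. The authors' deposited table holds a linear signal per miRNA. How its columns were scaled was not stated in the sources used here.

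Spots without an outlier flag were averaged per probe (4.26% to 4.44% carried one, 0 were saturated). Arrays were scaled to the 75th percentile of the 281 probes detected on all 6 of them, floored at the lowest detected probe and moved to log2, and the brightest probe stood for a miRNA. The number of arrays limits the precision. limma 3.58.1 in R 4.3.3 (lmFit and eBayes, two-sided, tested on simulated data) compared 3 arrays with 3, and Python 3.11.15 did the rest. Where nothing says that samples are separate cultures, p-values measure only the spread between these samples.

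The named miRNAs were the 3 members, their other arms and seed mates, a muscle and a muscle development list, and the 5 highest and 3 lowest correlations. The members and lists were chosen with earlier results of these data known. Alternatives were other scalings, background, probes, spots, labels, detection limits, the deposited table and each array left out.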

Additional observations from a re-analysis of the deposited data

How the results depend on the processing

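Detection of the members (6, 0 and 0 of 6 arrays) was the same under all 3 alternatives, and no difference of miR-206-3p between 2 arrays was called under any of 12. Of the 12, the 2-fold limit could not add a call. Exchanged labels altered only the comparisons of High glucose and High FFAs with Control. Scaling moved those differences: without it they were 0 for High glucose minus Control, 0.225 for Triple stimuli minus Control and 0.233 for Triple stimuli + Rapamycin minus Control. With the percentile over all probes they were 0.093 for High FFAs minus Control and 0.095 for Triple stimuli + Rapamycin minus Triple stimuli. The median of all miRNAs moved alike: relative to it, miR-206-3p stood at -0.23 for High glucose minus Control under each division by 1 factor, and at -0.22 with quantile normalisation. The deposited table gave -0.46 for High FFAs minus Control and -0.16 for Triple stimuli minus Hypoxia, and exchanged labels gave -0.28 for High FFAs minus Control. Outlier flags mattered as well. With all spots kept, the differences from Control were -0.162 on High glucose, -0.035 on High FFAs and 0.029 on Hypoxia. They were 0.077 on Triple stimuli and -0.069 on Triple stimuli + Rapamycin.

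By oxygen the sign turned with the percentile over all probes (-0.014), the median (-0.020), quantile normalisation (-0.021) and normexp (-0.004), with a range of -0.027 to 0.12 when 1 array was left out. By glucose label it turned without scaling (0.12) and with exchanged labels (0.044), the median gave -0.25, which passed the threshold, and leaving out 1 array gave -0.15 to -0.011. By palmitate label it turned with the other probe (-0.036), the table (-0.27) and exchanged labels (-0.082), with a range of -0.037 to 0.11 when 1 array was left out. The adjusted p (limma) ran from 0.749 to 1 by oxygen and from 0.0714 to 0.999 by palmitate. The cause was not tested.

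Of the 5 profiles most like miR-206-3p, 2 stayed among the highest 5 by Spearman rho and 3 without scaling. The number of miRNAs that passed by glucose label was 15. It was 48 without scaling, 39 with the median, 23 with quantile normalisation, 9 with normexp, 0 with the table (8 with an unadjusted p under 0.05) and 0 with exchanged labels (5). It was 5 without Control, 6 without Hypoxia and 1 without Triple stimuli + Rapamycin. By palmitate label 42 passed with the table and 15 with exchanged labels, beside 0, and by oxygen 1 passed when 198 miRNAs were tested. The alternatives for miR-181b-5p were read after seeing the data. No paired analysis was possible because each condition had 1 array.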
